A study of Mus musculus with 27 samples.

Results

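DNA methylation in hepatocytes of the inbred mouse strain DBA/2J was set against that of 8 other inbred strains. The 3 samples labelled DBA/2J, of 27 samples in all, were compared with 24 samples, 3 for each other strain. These were the laboratory strains C57BL/6J, A/J, 129S1/SvImJ, NZO/HlLtJ and NOD/ShiLtJ and the wild-derived strains WSB/EiJ, PWK/PhJ and CAST/EiJ. All mice were females aged 12 weeks, the source was liver and the cell type was given as hepatocytes, and no treatment or allele was named. Each sample is labelled as a biological replicate of its strain, and DBA/2J holds the replicates numbered 2, 3 and 4. The study related genetic differences among the strains to chromatin marks, methylation and expression, and no strain served as a control. Only the methylation data were used here.

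Methylation of cytosine in CpG dinucleotides is usually high across mammalian genomes and low at CpG islands, the CpG-rich stretches that hold many gene starts. Levels at a given place can differ between inbred strains, and within a strain the animals are genetically near-identical. DBA/2J is one of the oldest inbred mouse strains and is widely used to study pigmentary glaucoma, hearing loss and drug responses. Reduced representation bisulfite sequencing cuts DNA at CCGG and so samples mostly CpG-rich sequence; bisulfite treatment turns unmethylated cytosine into uracil, and the share of reads that keep a cytosine is the methylation level in percent.

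The DBA/2J samples listed 3121048, 3086803 and 3114054 positions, within the range of 2904787 to 3156965 over all 27 samples. Levels were compared at the 1692477 positions listed in all 27 samples, with each strand of a CpG as its own position. These fell into 63598 tiles of 1 kb with at least 5 such positions, whose level is the mean over their positions. The files hold percentages without read counts, so the depth per position is unknown. Among listed positions inside the RefSeq promoter windows, between 99.28 and 99.32% in the DBA/2J samples lay on a CpG of the reference sequence, against 98.15 to 99.80% over all samples.

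DBA/2J differed from the mean of the 8 other strains mostly by lower methylation. Of 45604 tiles tested, 966 (2.12%) were called different, with 266 higher (0.583%) and 700 lower (1.53%) in DBA/2J. A tile was called when limma gave an adjusted p under 0.05 and the DBA/2J mean lay at least 10 percentage points from the mean of the 8 strain means. The median size of the difference was 15.6 points among the higher and 16.2 points among the lower called tiles. An unadjusted p under 0.05 was reached by 6466 tiles. At 105 of the called tiles (0.23%) all 3 DBA/2J samples lay above, or all lay below, every one of the other 24 samples; these are called set apart below. Of the set-apart tiles 29 were higher (0.0636%) and 76 lower (0.167%) in DBA/2J. The tile at Prelid1, with a gap of 0.0786 points to the nearest other sample, had the narrowest gap among the higher ones. Across all tiles tested the median difference was -0.40 points, and after each sample was centred, an alternative chosen after the data were seen, 32 set-apart tiles were higher and 67 lower. Leaving out DBA/2J replicate 3 lowered the number called to 610. With 1 DBA/2J sample fewer to overlap the others, 176 tiles were set apart without replicate 2 and 217 without replicate 4.

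**Figure D1:**
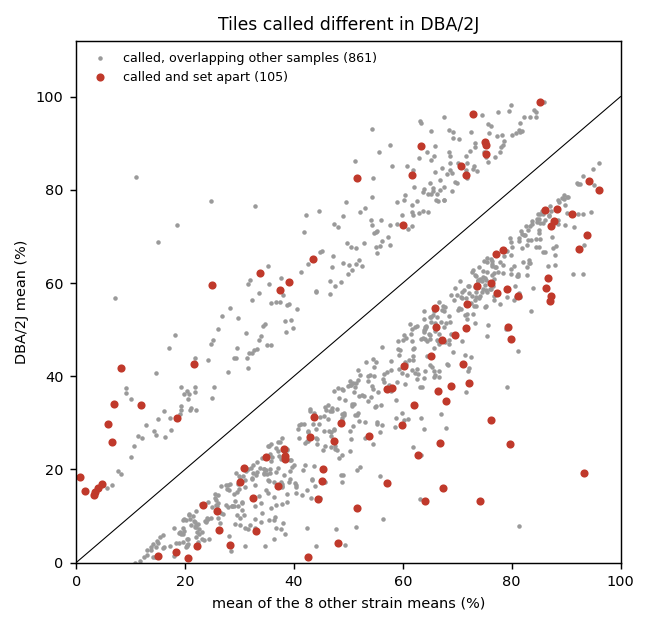
Each point is 1 of the 966 called tiles, with the mean of the 8 other strain means on the x axis and the DBA/2J mean on the y axis, both in percent methylation, and the diagonal marks equal levels. The 105 set-apart tiles are red; more called tiles lie below the diagonal (700) than above it (266).

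Tiles of intermediate methylation in the other strains held most of the differences. Where the mean of the other strains lay between 20 and 80%, 7.35% of 10509 tested tiles were called, and 16 were set apart higher and 59 lower. At tiles below 20% in the other strains, 0.883% of 8716 were called, and 12 were set apart higher and 2 lower. At tiles above 80%, 0.444% of 26379 were called, and 1 was set apart higher and 15 lower. The bounds of 0 and 100% limit the direction in which such tiles can differ. By annotation, 13 set-apart tiles touched a promoter window of 300 bases (250 before to 50 after a RefSeq gene start). Another 61 lay in a gene span without touching such a window and 31 lay between genes. Some genes, Rspo2 among them, had no window, so a tile at the start of such a gene counts as gene span. Of the tiles tested in each class these were 0.339, 0.197 and 0.286%, beside 0.23% of all tiles tested. The share called was 2.06% at promoter windows, 2.03% in gene spans and 2.40% between genes. Exons, introns and UTRs were not separated.

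Among tiles higher in DBA/2J, the widest gap to the nearest other sample lay at the start of Ndufs6, which encodes a subunit of mitochondrial respiratory complex I. Its tile (GRCm38, chr13:73328001-73329000, 41 positions) had levels of 17.8, 16.6 and 20.7% in DBA/2J, while the other 24 samples had 0.0938 to 1.65% with a median of 0.684%. The tile also overlaps the gene Mrpl36. No other strain mean exceeded 1.22%, and all 24 samples lay far below the DBA/2J samples. The difference was 17.6 points, or 2.30 ± 0.10 (SE) on the log2 ratio scale (limma, adjusted p = 1.08e-12). Within the tile the excess sat in a stretch of 110 bp (chr13:73328344-73328453, 20 positions, 29 to 138 bp downstream of the gene start). There DBA/2J had 36.1, 32.8 and 41.7%, against a highest value of 2.15% in the other samples. At the remaining 21 positions of the tile the DBA/2J mean was 0.763% and that of the other strains 0.821%. Stretches here and below run from the first to the last position of a tile at which DBA/2J did not overlap the other samples. Their ends and part of their contrast with the rest of the tile therefore follow from that rule.

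The promoter windows of 3 genes with a set-apart tile are shown because they hold shared positions at which the DBA/2J samples did not overlap the other 24; the capitals mark those positions. The window of Lrrc4c also holds such positions, 2 of only 3 shared, with a DBA/2J mean of 5.91% against at least 10.6%, and is not printed because so few positions cover it. The sequences are the RefSeq reference (GRCm38.p6), 5′ to 3′ on the gene's strand, and not the sequence of DBA/2J. The windows are chr13:73328433-73328732 on the minus strand for Ndufs6, chr7:101347819-101348118 on the plus strand for Arap1 and chr14:19311640-19311939 on the minus strand for the long noncoding RNA gene Gm33022.
Ndufs6: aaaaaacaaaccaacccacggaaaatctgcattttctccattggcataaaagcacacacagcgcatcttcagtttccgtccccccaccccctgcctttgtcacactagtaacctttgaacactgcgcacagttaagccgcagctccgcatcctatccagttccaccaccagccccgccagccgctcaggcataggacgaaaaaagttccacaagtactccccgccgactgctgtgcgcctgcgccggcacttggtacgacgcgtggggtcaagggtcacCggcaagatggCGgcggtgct
Arap1: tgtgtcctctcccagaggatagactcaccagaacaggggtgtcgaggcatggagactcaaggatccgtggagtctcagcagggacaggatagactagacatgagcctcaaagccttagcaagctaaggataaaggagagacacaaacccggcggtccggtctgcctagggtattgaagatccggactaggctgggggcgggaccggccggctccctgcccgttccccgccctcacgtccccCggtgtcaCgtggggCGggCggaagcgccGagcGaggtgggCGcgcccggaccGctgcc
Gm33022: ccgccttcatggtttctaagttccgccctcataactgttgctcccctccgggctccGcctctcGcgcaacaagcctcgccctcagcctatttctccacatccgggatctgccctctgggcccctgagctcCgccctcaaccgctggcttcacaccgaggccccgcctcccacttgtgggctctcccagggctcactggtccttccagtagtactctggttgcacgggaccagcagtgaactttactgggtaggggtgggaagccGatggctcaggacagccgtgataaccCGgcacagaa
The Ndufs6 window held 11 shared positions, of which 3 did not overlap, with a DBA/2J mean of 11.3% against at most 2.08% elsewhere. The Arap1 window held 30, of which 10 did not overlap, with 39.5% against at most 22.3%. The Gm33022 window held 23, of which 6 did not overlap, with 5.58% against at least 19.2%. The windows contain 20, 23 and 16 CG dinucleotides respectively, where the median over 32851 RefSeq windows was 7. In the Ndufs6 and Arap1 windows the capitals lie towards the 3′ end, around and after the gene start.

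Arap1, which encodes an adaptor with GTPase-activating domains, was higher over its start and the overlapping lncRNA gene Gm35219 (chr7:101348001-101349000, 59 positions). DBA/2J had 47.4, 41.4 and 36.2%, and the other samples ranged from 1.28 to 26.3% with a median of 2.92%. The other strains were not alike here. PWK/PhJ had a mean of 23.1%, CAST/EiJ 20.6% and A/J 10.9%, and the other 5 strains had 1.496 to 3.15%. The difference was 33.4 points (limma, adjusted p = 1.03e-10).

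Gpi1 encodes glucose-6-phosphate isomerase of glycolysis and gluconeogenesis. Its tile (chr7:34230001-34231000, 54 positions) had 16.4, 15.7 and 15.7% in DBA/2J and 0 to 11.9% in the others, with a median of 2.35% (limma, adjusted p = 3.31e-09). The strains formed a graded order, with NZO/HlLtJ at 11.2% ± 1.21 (SD, n = 3), 129S1/SvImJ at 8.04% ± 1.34 (SD, n = 3), A/J at 5.70% ± 1.13 (SD, n = 3) and NOD/ShiLtJ at 4.84% ± 1.21 (SD, n = 3). A/J and NOD/ShiLtJ lay within their spread of each other. C57BL/6J, CAST/EiJ, PWK/PhJ and WSB/EiJ had 0.378 to 0.759%. Nearly all of the excess fell in a stretch of 87 bp (chr7:34230112-34230198, 18 positions, 138 to 224 bp downstream of the gene start), where DBA/2J had 48.4, 47.1 and 46.0% and the others 0 to 35.6%. Outside it the tile was at 0.346% in DBA/2J and 0.254% in the others. The promoter window itself was unmethylated in DBA/2J, at 0.327% over 25 shared positions.

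Other higher tiles lay inside gene spans. Rspo2 encodes R-spondin 2, a secreted amplifier of Wnt signalling. Its tile (chr15:43170001-43171000, 91 positions) had 17.95, 12.79 and 15.01% in DBA/2J and 0.813 to 2.68% in the others, with a median of 1.52% (limma, adjusted p = 6.41e-11). No sample of another strain came near the DBA/2J range, and 47 of the 67 positions in a stretch of 434 bp (chr15:43170344-43170777) did not overlap. Adrb3, the beta-3 adrenergic receptor of fat tissue, had adjacent higher tiles. The first (chr8:27227001-27228000, 56 positions) had 14.5, 15.6 and 13.2% against 1.85 to 5.16%, and the second (chr8:27228001-27229000, 6 positions) had 26.07, 26.55 and 25.02% against 2.45 to 17.5%. C57BL/6J, at a mean of 14.3%, was nearest to DBA/2J in the second. Outside its 56 shared positions, the first tile held 7 positions listed in all 24 other samples and in no DBA/2J sample. It also held 5 listed in all 3 DBA/2J samples and in no other.

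Mapk15, an atypical MAP kinase, had 58.2, 58.2 and 62.2% (chr15:75998001-75999000, 73 positions). The other samples ranged from 4.40 to 51.2% there, with A/J at 47.0% nearest and CAST/EiJ, WSB/EiJ and PWK/PhJ at 4.52, 6.88 and 7.89%. Bik, a pro-apoptotic BH3 protein, held 4 set-apart positions and is named here after its values were seen. Its tile had 35.4, 37.1 and 28.9% against at most 27.9%. Niban3 (chr8:71602001-71603000, 113 positions) had 44.6, 43.9 and 39.7%. Its other samples reached 36.8%, with NZO/HlLtJ, 129S1/SvImJ and WSB/EiJ at 36.4, 31.8 and 31.6% and the other 5 strains between 11.8 and 15.9%. Thus at Mapk15 and Niban3 the DBA/2J level was the top of a range that other strains nearly reached, unlike at Ndufs6 and Rspo2.

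The remaining higher tiles among the 15 with the widest gap that are described here had DBA/2J means from 31.1 to 87.7%. At Sdccag8, a centrosomal protein gene, the tile overlaps the pseudogene Hmga2-ps1 and had 35.2, 39.5 and 27.2% against at most 22.8%. Cacnb1 and Camk2b encode a voltage-gated calcium channel subunit and a calmodulin-dependent kinase, and had DBA/2J means of 65.1% and 82.4% against at most 56.5% and 75.1%. Calhm2, of the calcium homeostasis modulator channel family, had a mean of 58.6% against at most 51.2%. The tile 2696 bp from Gsx1, a homeobox gene of the developing brain, had 31.1% against at most 24.5%. The tile near the pseudogene Gm10343 had 87.7% against at most 85.0%. Its call was lost with any 1 DBA/2J sample left out and without CAST/EiJ and PWK/PhJ. It was also lost with the replicate number as a block and under the largest of the 8 pairwise p-values.

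**Figure D2:**
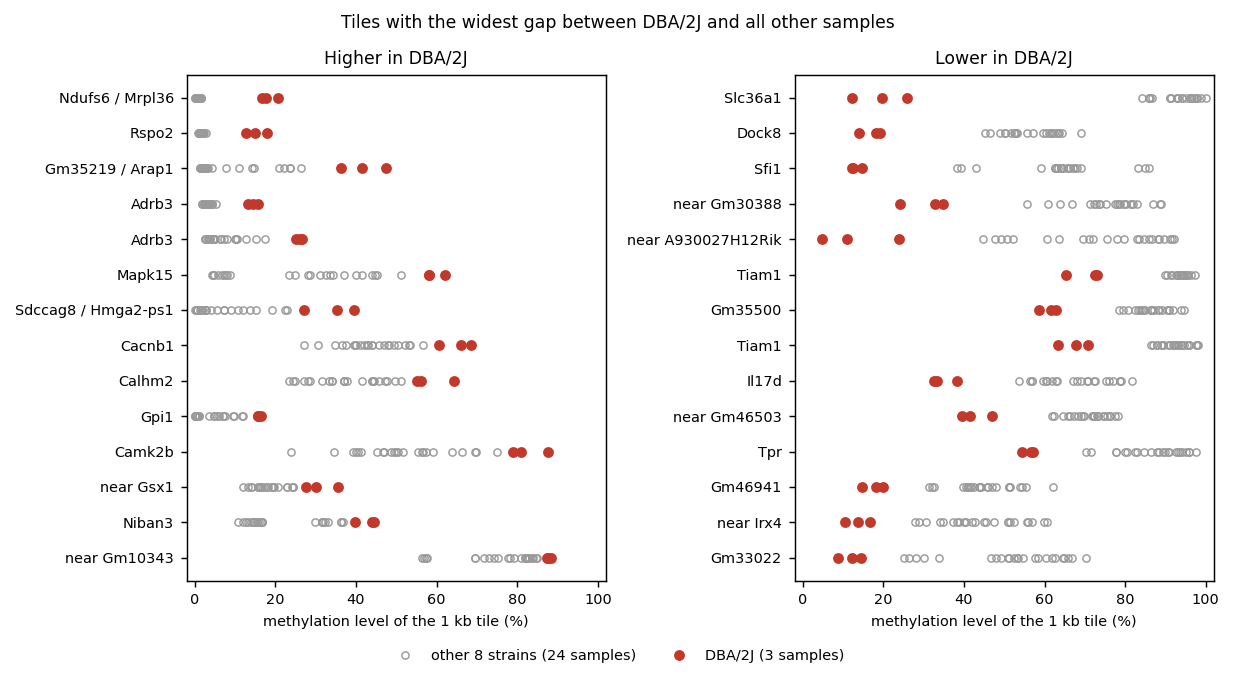
Methylation level in percent (x axis) of 14 higher and 14 lower set-apart tiles among those with the widest gap between DBA/2J and the other samples, labelled by the genes they overlap or the nearest gene. Filled red points are the 3 DBA/2J samples and open grey points the other 24; no red point overlaps the grey range of its row, and the gap is widest at Slc36a1, where DBA/2J reaches at most 25.9% and the others start at 84.2%.

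Among tiles lower in DBA/2J, the widest gap lay in Slc36a1, which encodes a proton-coupled transporter of small amino acids. The tile (chr11:55219001-55220000, 5 positions) had 19.8, 25.9 and 12.1% in DBA/2J and 84.2 to 100% in the others, with a median of 94.0%. All 8 other strain means lay between 86.2 and 96.5%, and the difference was -74.0 points, or -5.03 ± 0.34 (SE) on the log2 ratio scale (limma, adjusted p = 1.8e-09). The stretch in this tile held 4 positions in 35 bp (chr11:55219053-55219087), with 8.06, 13.6 and 2.68% against at least 82.2%. They come in neighbouring pairs, the strands of the same CpG, so fewer CpGs than positions underlie the contrast. The remaining position of the tile was at 63.9% in DBA/2J and 95.7% in the others. The preceding tile (chr11:55218001-55219000, 7 positions) was set apart too, at 2.16, 3.23 and 7.47% against 14.4 to 85.2%. NZO/HlLtJ had a mean of 16.5% in that preceding tile and 86.2% in the tile after it. The tile that starts 2 kb after the first had 94.3% in DBA/2J and 94.4% in the others, so the lower level did not extend that far.

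Dock8 encodes a guanine nucleotide exchange factor known for its role in immune cell migration. Its tile (chr19:25123001-25124000, 8 positions) had 19.06, 18.15 and 14.02% against 45.1 to 69.1%, with a median of 58.3% (limma, adjusted p = 6.31e-10). Sfi1, a centrin-binding protein gene, had 14.7, 12.2 and 12.5% (chr11:3193001-3194000, 34 positions) against 38.2 to 85.8%, with a median of 64.2%. DBA/2J lay below every other sample at all 34 of its positions. The nearest strain was PWK/PhJ at 40.1% and the farthest C57BL/6J at 84.6%. Sfi1 lies in a region known for near-identical copies, so the source of its reads, and with it this level, is uncertain.

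Tiam1, which encodes an exchange factor for the GTPase Rac, had adjacent lower tiles. The first (chr16:89897001-89898000, 19 positions) had 73.0, 65.3 and 72.6% against 89.9 to 97.4%, and the second (chr16:89898001-89899000, 15 positions) had 70.9, 63.3 and 67.9% against 86.3 to 98.1%. The other strains were tightly grouped in the first, with means of 90.7 to 95.3%. The lncRNA gene Gm35500, on the same chromosome (chr16:89693001-89694000, 7 positions), had 62.9, 58.6 and 61.6% against at least 78.3%. These 3 tiles were thus partly and not fully unmethylated in DBA/2J.

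Il17d, a cytokine of the interleukin 17 family, had 33.3, 32.6 and 38.3% (chr14:57542001-57543000, 48 positions) against 53.5 to 81.7%, with a median of 68.6%. DBA/2J was the lower at 47 of the 48 positions by mean, and the adjoining tile was at 93.8% in DBA/2J and 95.02% in the others. Gm33022, whose promoter window is printed above, had 8.84, 12.1 and 14.4% (chr14:19311001-19312000, 29 positions) against 25.1 to 70.3%. The next tile (6 positions) had 4.85, 25 and 17.9% against 30.7 to 93.8%. PWK/PhJ was the nearest strain in both, with means of 28.2 and 35.7%. Tpr, a protein of the nuclear pore basket, had 54.43, 56.67 and 57.03% (chr1:150407001-150408000) against at least 70.4%.

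The other lower tiles among the 15 with the widest gap lay in or near noncoding genes and Irx4. Gm46941, another lncRNA gene, had 18.2, 19.9 and 14.6% against at least 31.3%. The tile 7589 bp from Irx4, a homeobox gene of the heart ventricle, had 13.8, 10.4 and 16.7% against at least 27.9%. The tiles near Gm30388 (814 bp away), A930027H12Rik (72978 bp away) and Gm46503 (8726 bp away) had DBA/2J means of 30.5, 13.3 and 42.7% against at least 55.6, 44.8 and 61.8%. At A930027H12Rik the DBA/2J samples were themselves spread, at 4.78, 11.04 and 23.96%. Of the 75 set-apart tiles not among these 30, the 14 higher had gaps of 0.0786 to 1.53 points, and the 61 lower had gaps of -10.3 to -0.22 points.

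**Figure D3:**
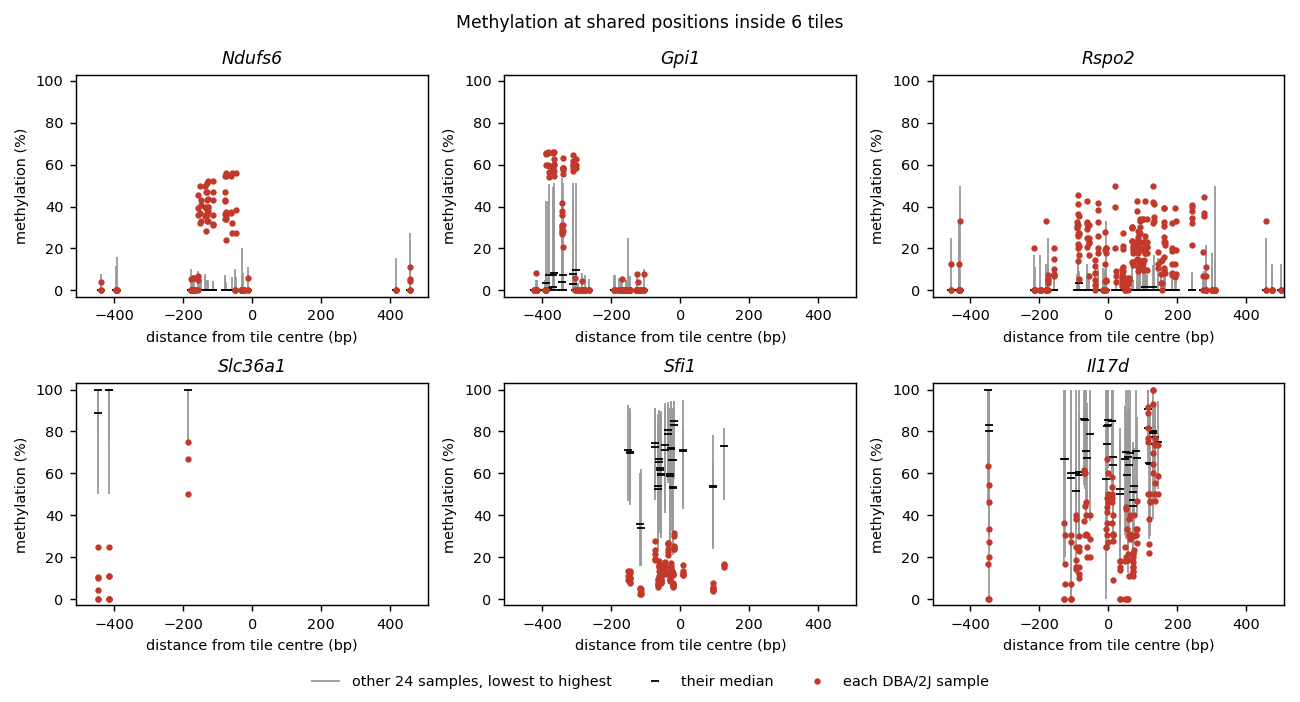
Methylation in percent at each shared position against distance from the tile centre in bp, for Ndufs6, Gpi1, Rspo2, Slc36a1, Sfi1 and Il17d. Red points are the 3 DBA/2J samples, grey lines run from the lowest to the highest of the other 24 samples and black dashes are their median; the Ndufs6 and Gpi1 excess lies in short stretches within the tile, while all 34 Sfi1 positions lie below the grey lines.

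As a stricter rule, the largest of the 8 pairwise p-values was used. The minimum difference was still taken from the mean of the 8 strain means. A tile could therefore pass without that difference from each strain. The first Adrb3 tile passed with 14.4% in DBA/2J and 4.45% in PWK/PhJ, just short of the minimum for that pair. A total of 17 set-apart tiles kept their call under this rule. Among the 30 tiles of widest gap these included Ndufs6, Rspo2, Arap1, the first Adrb3 tile, Slc36a1, Dock8, Sfi1, Il17d, the first Tiam1 tile, Gm35500 and the tile near Irx4. For 14 of the 30, among them Gpi1, Mapk15, Niban3, Tpr and Gm33022, this stricter rule ended the call. For those 14 the adjusted p was 0.139 to 1 under this rule.

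Besides Slc36a1, Tiam1, Adrb3 and Gm33022, Igsf21 and the protocadherin beta cluster held at least 2 set-apart tiles. In Igsf21, a synaptic adhesion protein gene, both tiles were lower (chr4:140221001-140222000, at 42.6, 41.6 and 48.8% against at least 50.1%, and chr4:140243001-140244000, at 3.83, 0 and 2.91% against at least 4.17%). The adjacent tiles over Pcdhb17 and the overlapping model Gm37013 (chr18:37485001-37487000) had DBA/2J means of 57.9% and 54.6% against at least 66.9% and 59.7%. Protocadherins are cell adhesion proteins encoded in clustered arrays of similar genes, so reads there may be shared among copies.

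At single positions the directions were more even. Of 704331 positions tested, 1853 (0.263%) were called at an adjusted p under 0.05 (limma) and a difference of at least 25 points, with 834 higher (0.118%) and 1019 lower (0.145%). Of these 382 were set apart (0.0542%), with 138 higher (0.0196%) and 244 lower (0.0346%). After centring, 977 called positions were higher and 820 lower, so the majority turned, and the set-apart positions were 206 higher and 222 lower. It turned as well under the largest of the 8 pairwise p-values, with 20 called positions higher and 9 lower. Offsets matter as well: with 1 point in place of 5 points in the log ratio, 940 positions were called. Leaving out DBA/2J replicate 3 gave 1142 called positions, and leaving out replicate 4 gave 640 set apart.

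Of the 382 set-apart positions 206 lay in set-apart tiles, whose means are taken from the same positions, and 43 tiles held at least 2. Both strands of a CpG count as separate positions here. Sfi1 held 34, Ndufs6 and Rspo2 18 each, Arap1 15, Gpi1 12, Il17d and Niban3 10 each. A gap of at least 25 points separated DBA/2J from every other sample at 56 positions, 19 higher and 37 lower. The largest, singled out after its value was seen, was a position in Snhg14, a noncoding RNA gene of the imprinted Snurf-Snrpn region (chr7:59384689). It was at 0% in DBA/2J with a difference of -95.1 points. A position in Slc25a38, a mitochondrial glycine carrier gene (chr9:120119783), had a mean of 3.70% and a difference of -93.7 points. Bisulfite sequencing reads a C-to-T sequence variant as an unmethylated cytosine. Of the 244 lower positions 14 were at 0% in all 3 DBA/2J samples and 205 had a DBA/2J mean above 5%; the genotype at these positions was not tested.

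Set-apart tiles were spread over the genome with an uneven share per chromosome. Chromosome 14 had the highest share, 8 of 1531 tested tiles (0.523%), with 2 higher and 6 lower. Its called tiles numbered 48 (3.14%). Chromosome 16 had nearly the same share of set-apart tiles, 6 of 1189 (0.505%), and 2 of the 8 on chromosome 14 were the adjacent Gm33022 tiles. Chromosome 9 had none among 2388 tested tiles, although 49 (2.05%) were called there, 10 higher and 39 lower. Without CAST/EiJ and PWK/PhJ among the other strains, 3 tiles on chromosome 9 were set apart, and without the filter on mean level 1 was. With DBA/2J replicate 2, 3 or 4 left out the number was 6, 1 and 6, and without NZO/HlLtJ replicate 2 it was 2. On the X chromosome 7 of 1587 tiles were called (0.441%), all lower, and 1 was set apart, close to Vegfd, a lymphatic growth factor gene, at 51.8, 62.8 and 65.4% against at least 68.3%. No test was applied to these shares, since neighbouring tiles are not independent.

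**Figure D4:**
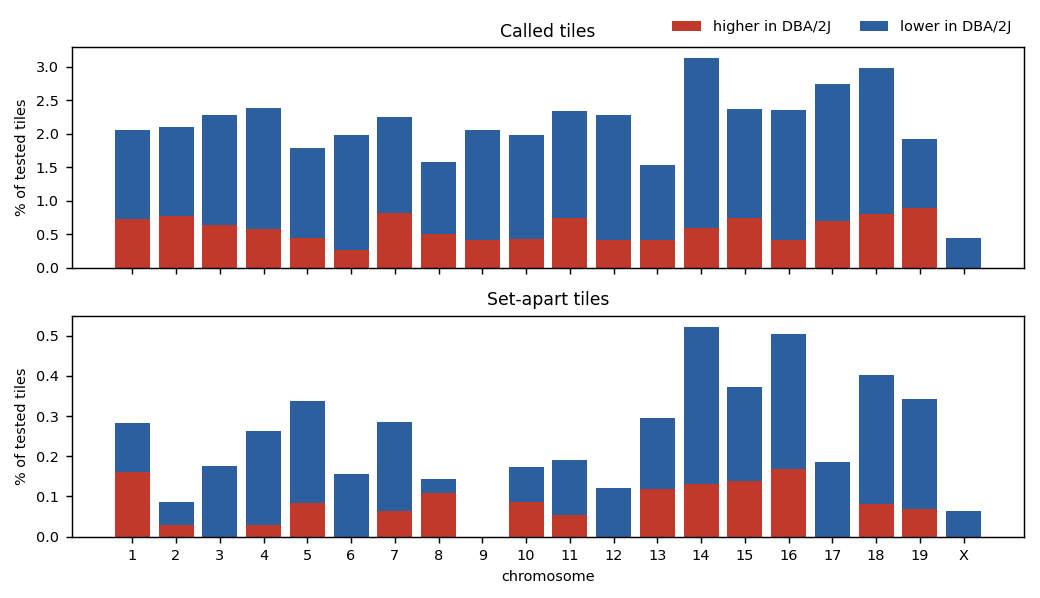
Share of tested tiles, in percent, that were called (upper panel) and set apart (lower panel) on each chromosome, with tiles higher in DBA/2J in red and lower in blue. Chromosome 14 has the tallest bar in both panels (3.14% and 0.523%), with chromosome 16 close to it in the lower panel (0.505%). Chromosome 9 has no set-apart tile.

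Of the 105 set-apart tiles, 36 lay within 1 Mb of another, in 15 groups, and 69 lay alone. The group with the most tiles spanned chr7:98423001-101349000 and held 5, of which 4 were lower (near Gm44507, in Uvrag, in Xrra1 and near Ucp2) and 1 higher (Arap1). Uvrag, an autophagy gene, had 2.48, 0.667 and 0% against 3.67 to 43.7%. The tile 337 bp from Ucp2, a mitochondrial carrier gene, had 0.752, 2.25 and 1.05% against 3.03 to 31.4%. Both were thus nearly unmethylated in DBA/2J. The higher Ndufs6 tile and the lower tile near Irx4 also lay within 1 Mb of each other on chromosome 13, in opposite directions.

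The fewest tiles were called between DBA/2J and the other laboratory strains, and the most against CAST/EiJ and PWK/PhJ, which descend from wild mice of other subspecies. The 8 comparisons share the DBA/2J samples, so each is given by its own counts (limma, adjusted p under 0.05 and at least 10 points). Against NZO/HlLtJ 813 tiles (1.78%) were called, 327 higher and 486 lower in DBA/2J. Against 129S1/SvImJ there were 851 (1.87%), 383 higher and 468 lower, and against NOD/ShiLtJ 923 (2.02%), 320 higher and 603 lower. Against C57BL/6J there were 1111 (2.44%), 567 higher and 544 lower. Against A/J there were 1351 (2.96%), of which 1136 were lower in DBA/2J and 215 higher. Against WSB/EiJ there were 1549 (3.4%), 859 higher and 690 lower. Against CAST/EiJ there were 3526 (7.73%), 1052 higher and 2474 lower, and against PWK/PhJ 3739 (8.2%), 967 higher and 2772 lower. More tiles were lower than higher in DBA/2J in all but the comparisons with C57BL/6J and WSB/EiJ. After each sample was centred the split became 272 higher and 741 lower against A/J, 1280 and 1928 against CAST/EiJ and 1249 and 2022 against PWK/PhJ. It turned to 428 higher and 419 lower against 129S1/SvImJ and to 552 higher and 563 lower against C57BL/6J. At a minimum of 25 points it was 160 higher and 167 lower against C57BL/6J and 203 higher and 220 lower against WSB/EiJ, so the majority turned in both. At the 966 called tiles the strain mean nearest to DBA/2J was that of NZO/HlLtJ at 150 and 129S1/SvImJ at 139, and least often that of CAST/EiJ at 100 and PWK/PhJ at 94. At the 105 set-apart tiles the order was another, with PWK/PhJ nearest at 19, NZO/HlLtJ at 18, CAST/EiJ and WSB/EiJ at 15 each, A/J at 13, 129S1/SvImJ at 11, C57BL/6J at 9 and NOD/ShiLtJ at 5.

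**Figure D5:**
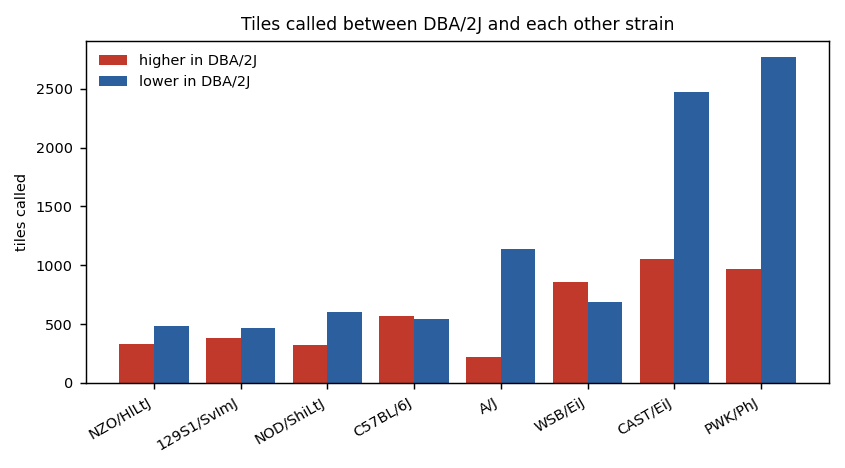
Number of 1 kb tiles called between DBA/2J and each other strain (y axis), higher in DBA/2J in red and lower in blue, with strains ordered by their total. Totals run from 813 against NZO/HlLtJ to 3739 against PWK/PhJ, and the excess of lower tiles is plain against A/J, CAST/EiJ and PWK/PhJ.

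The overall level of DBA/2J was not unusual. Its mean over the 1692477 shared positions was 27.5% ± 0.0732 (SD, n = 3), the 3rd lowest of 9 strains, and the other 24 samples ranged from 27.2 to 28.6%. The difference from the other samples was -0.355 points (two-sided exact permutation test, p = 0.164, 3 against 24 samples, which come from 8 strains and are not independent draws of 1 group). On the X chromosome DBA/2J had 44.1% against 45.2%, and the same exact permutation test gave p = 0.133.

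Tiles of genes with liver functions were counted by list, without a test. Tiles in a gene span or within 2 kb of it were counted, beside 2.12% called among all tiles and an all-tile median difference of -0.40 points. No tile was called among 61 tiles of 33 drug metabolism genes (median difference 0.286 points), although a single position in one of them, Cyp2c39 (chr19:39551036), was set apart at 43.3% with a difference of -48.6 points. None was called among 43 tiles of 5 genes with known DBA/2J variants, such as Gpnmb and Tyrp1 of the strain's eye disease, with a median of -0.709 points. None was called among 139 tiles of 41 imprinted genes (median -0.358 points) or 70 tiles of 25 genes of the methylation machinery (median -0.250 points). In lipid metabolism 1 of 181 tiles was called (0.552%, list median -0.343 points). In glucose metabolism 1 of 161 was called (0.621%, list median -0.235 points), the Gpi1 tile described above, which was the only set-apart tile of any list.

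Among hepatocyte transcription factors and nuclear receptors 7 of 243 tiles were called (2.88%, list median -0.333 points), 5 higher and 2 lower. The higher ones included Foxa1, a pioneer factor of liver development, at 47.7% against 33.5% (limma, adjusted p = 0.0215). Ppara, the receptor that controls fatty acid oxidation, had a tile at 68.6% against 53.0% (limma, adjusted p = 0.0219). Rxrg, Esrrg and Gata6 were the other higher ones. Nr1d2, a clock repressor, was lower at 74.5% against 86.8% and Rxrb at 28.7% against 40.7%. None of the 7 was set apart, so each overlapped a sample of another strain.

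Markers of liver cell types were checked where positions lay within 500 bp of their gene starts. In DBA/2J the hepatocyte genes Apob and Hnf4a were low, at 6.23 and 4.05%, against means of 6.51 and 6.04% in the others. Epcam, a cholangiocyte marker, was at 57.6% against 51.4%. Endothelial Kdr was at 1.13%, and the stellate cell genes Lrat and Des were at 2.05 and 11.8%, so low methylation at a start did not separate the cell types here. The start of Alb and of several other markers held no shared position, and the blood cell list gave no value. Of the marker tiles, none was called among 13 for hepatocytes, 10 for cholangiocytes, 9 for Kupffer and other blood cells and 10 for endothelial cells. Of 15 stellate cell tiles 1 was called (6.67%, beside 2.12% of all tiles), in Pdgfrb, at 36.8% against 20.4% (limma, adjusted p = 4.98e-05). Lists of so few tiles cannot show a difference from the share over all tiles. A part of the cell mixture in the strain differences was not tested.

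Some positions could not be compared because they were not listed in every sample. A total of 2893 positions were listed in all 24 other samples and in no DBA/2J sample, and 4576 in all 3 DBA/2J samples and in no other. The corresponding number missing in 1 strain alone was 2523 to 4058 for the other laboratory strains, 12370 for WSB/EiJ, 70712 for PWK/PhJ and 72191 for CAST/EiJ. Missing positions gathered in 95 tiles with at least 5 of them, and DBA/2J-only positions in 175. The tile chr10:7392001-7393000 in Gm21321 held 25 missing and 15 DBA/2J-only positions. In the tile of Gm8762, 33 positions were listed in all 24 other samples; 20 of them were in no DBA/2J sample and none was in all 3. In the major histocompatibility complex on chromosome 17, the tile at H2-T-ps held 19 DBA/2J-only positions, and the tiles at H2-K1 and H2-T23 held 11 each. Which positions are listed depends on depth and sequence, and neither was tested.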

How the data were processed

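Per the labels' protocols, genomic DNA of hepatocytes was cut with MspI and made into bisulfite libraries. The submitters' processing notes name Trim Galore 0.6.3, Bowtie2 and Bismark 0.22 and the builds GRCm38 and mm10. The authors deposited percent methylation per position, per the file headers, without counts or coverage; any coverage filter is not given in the sources used here. The mitochondrial chromosome is named M in the C57BL/6J files and MT in the others, so a difference in processing and that strain cannot be told apart.

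Levels were transformed to log2((percent + 5)/(100 - percent + 5)) and fitted with limma 3.58.1 in R 4.3.3, with strain as a factor and DBA/2J set against the mean of the 8 other strain means. Features with a mean of 2.5 to 97.5% were tested, and p-values were Benjamini-Hochberg adjusted over all of them. The planned count model was not used because no counts are held. Named tiles are the 15 higher and 15 lower with the widest gap, genes with at least 2 set-apart tiles, list genes with a set-apart tile and the extreme chromosomes; a few of these are not reported here. On simulated tiles shifted by 25 points, 45 of 50 were recovered. That shift is larger than the median difference of the called tiles, 15.6 points for the higher and 16.2 points for the lower. The recovery given therefore does not describe differences of that smaller size. Replicate numbers did not pair samples. The comparison, the lists and the rules were chosen with earlier results of these data known. Python 3.11.15, pandas 2.3.3 and scipy 1.17.1 were used, and figures were drawn with matplotlib 3.10.9.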

Additional observations from a re-analysis of the deposited data

How the results depend on the processing

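No named tile and no difference in mean level changed direction under the alternatives run; the majority direction of called positions turned after centring and under the largest of the 8 pairwise p-values (20 higher and 9 lower). Of 1546 alternative values 1484 stayed within the limits set, 43 moved by over 1.5 times and 19 lost their call. Most of the 1546 belong to the 30 named tiles. These were picked for a wide gap in the same data, which in part fixed that they kept their call. Of 1047 values for the 30 named tiles, 19 lost the call, 14 of them under the largest of the 8 pairwise p-values and the other 5 at the tile near Gm10343. The 966 called tiles became 17 under that rule, 147 at a minimum of 25 points, 626 with strands averaged and 452 with at least 10 positions per tile. The 105 set-apart tiles became 171 without CAST/EiJ and PWK/PhJ, 17 under the largest pairwise p, 37 at 25 points, 18 with a gap of at least 10 points, and 161 or 56 with at least 3 or 10 positions. The 1853 called positions became 940 with an offset of 1 point, 3096 on the untransformed scale, 29 under the largest pairwise p and 382 at 50 points. The 382 set-apart positions became 251 with an offset of 1 point, 626 without CAST/EiJ and PWK/PhJ, 29 under the largest pairwise p, 105 at 50 points and 56 with a gap of at least 25 points. At 25 points the pair counts were 267 for 129S1/SvImJ, 315 for A/J, 327 for C57BL/6J, 1007 for CAST/EiJ, 287 for NOD/ShiLtJ, 252 for NZO/HlLtJ, 1020 for PWK/PhJ and 423 for WSB/EiJ. Positions listed in every other sample and in no DBA/2J sample numbered 11452 without CAST/EiJ and PWK/PhJ, by construction, since fewer samples must list them.

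Leaving out each sample in turn gave 610 to 997 called tiles, 105 to 217 set-apart tiles, 1142 to 1925 called positions and 381 to 640 set-apart positions. With each DBA/2J sample alone left out in turn, 3180 to 3359 positions were missing in DBA/2J and the difference in mean level was -0.396 to -0.325 points. With each of the 27 samples left out, the pair counts were 596 to 885 for 129S1/SvImJ, 920 to 1415 for A/J, 844 to 1111 for C57BL/6J, 2966 to 3598 for CAST/EiJ, 697 to 960 for NOD/ShiLtJ, 600 to 825 for NZO/HlLtJ, 3142 to 3812 for PWK/PhJ and 1157 to 1618 for WSB/EiJ.

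With the replicate number as a block, 875 tiles were called and 99 set apart, and 1393 positions were called and 323 set apart. Of the 30 named tiles, the one near Gm10343 lost its call under the block. The numbers did not pair the samples: of 76 same-numbered pairs none had a correlation of deviations over 0.1 (median 0.0057), and 8 of 27 samples were closest to their own number. The cause of the other moves was not tested, beyond the fewer samples or features that an alternative leaves. Depth is unknown, so it sets no stated limit.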
